A study of Homo sapiens with 18 samples.

Results

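QKI binding was followed in 7 genes that themselves encode splicing regulators: MBNL1, MBNL2, CELF2, RBFOX1, RBFOX2, PTBP2 and RBM20. The genes were chosen by name and read as fixed hg19 intervals, and a peak was counted for a gene when it lay on the gene's strand and shared 1 nt or more with the interval. The assay was eCLIP: living cells are irradiated so that proteins become fixed to the RNA they touch, QKI is pulled down with an antibody (IP), and its RNA is sequenced together with an input sample cut from the same gel range. The authors deposited, for each IP library, a list of clusters above input, each with a log2 fold of IP over input and a −log10 p. Clusters enriched 4-fold or more, at a p of 0.001 or less, are called passing peaks here. The 7 genes held 282 of 77088 passing peaks (0.366%), 2057 of 879442 clusters (0.234%), and 31 of 10301 peaks in the merged lists of each day, which hold peaks found reproducibly across the libraries of that day.

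All libraries came from HUES6, a human embryonic stem cell line, with 3 IP libraries per time point. Day 0 cells were pluripotent cells in growth medium without differentiation agents. Day 4 cells, labelled cardiac progenitors, and day 8 cells, labelled cardiomyocytes and collected once they beat, had been started with CHIR, which activates Wnt signalling, and the growth factor BMP4, and then given the Wnt inhibitor C59. The comparison of days asks when QKI bound the transcripts of these regulators. No genotype differed between days. Whether libraries of the same day are separate cultures or differentiations is not stated in the labels, so p-values measure the spread between these libraries, which may be technical. Cell identity rests on the labels, because peak lists carry no expression level against which markers could be checked.

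QKI, a STAR-family protein, binds introns and untranslated regions of RNA and regulates splicing, including in muscle and heart. MBNL proteins promote splice choices of mature muscle and heart, and their loss of function by sequestration underlies myotonic dystrophy. CELF proteins often act on the same exons in the opposite direction. RBFOX proteins bind next to exons in brain, heart and muscle, PTBP2 is the form of polypyrimidine tract binding protein that is prominent in the developing nervous system, and RBM20 controls the splicing of titin and other sarcomere genes and is mutated in inherited dilated cardiomyopathy. Transcripts of splicing regulators are often bound by other splicing regulators.

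The intervals were, on hg19, chr3:151961617-152183569 for MBNL1, chr13:97873688-98046374 for MBNL2, chr10:11047259-11378674 for CELF2, chr16:5289469-7763342 for RBFOX1, chr1:97187175-97289294 for PTBP2 and chr10:112404155-112599227 for RBM20, all on the plus strand, and chr22:36134783-36424585 on the minus strand for RBFOX2. Their lengths ran from 102.12 kb for PTBP2 to 2473.87 kb for RBFOX1. Exons, introns and untranslated regions were not assigned, since no hg19 annotation was used, so positions are given as distances from the 5′ end of each interval. No cluster of any fold lay on the opposite strand of any of the 7 intervals in any library.

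The lists differed in length. The day 0 lists held 102085 to 187962 clusters and 12695 to 15508 passing peaks, day 4 libraries 63319 to 99552 clusters and 3030 to 7775 passing peaks, and day 8 libraries 52462 to 62897 clusters and 3726 to 10966 passing peaks. Read depth is unknown, and the part that depth played in these numbers was not tested. Each gene's count was therefore compared as a share, in peaks per 10000 of its own library. The shares were fitted on a log2 scale with limma over 926 features, namely those of the 7 genes and of all other loci of passing peaks that held at least 18 of them, with Benjamini-Hochberg adjustment over all of them. A share does not separate more binding per transcript from more transcript, and within a mixed culture it does not separate either from more cells that express the gene.

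MBNL2, within its interval, and RBM20 carried QKI peaks that were scarce or absent at day 0, RBFOX1 carried peaks that were nearly confined to day 0, and RBFOX2 was bound at all 3 days with a larger share of peaks at day 8. Of the 5 genes with enough passing peaks to be tested, MBNL2, RBFOX1 and RBFOX2 differed over the 3 days, where 41.3% of all 926 features did. CELF2 and RBM20 had 14 and 11 passing peaks over the 9 libraries, under the minimum of 18, and were tested only on clusters of any fold, where 3701 features were fitted and 6 of the 7 genes differed over the 3 days against 35.4% of all features. An exact permutation test, which used the 280 ways to divide the 9 libraries into 3 days and was run in place of limma, called 0 of the 926 features after adjustment and 360 at an unadjusted p at or below 0.05. MBNL2, RBFOX1 and RBFOX2 were among those with unadjusted exact permutation p-values of 0.00357, 0.0143 and 0.0214 and adjusted ones of 0.0542, 0.0900 and 0.101, and 0.00357 is the smallest value these partitions can give. On clusters of any fold the same permutation test passed none of the 7 genes after adjustment. Its adjusted p-values there were 0.0510 for MBNL1, MBNL2, RBFOX1 and RBM20, 0.0838 for RBFOX2, 0.103 for CELF2 and 0.188 for PTBP2.

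**Figure D1:**
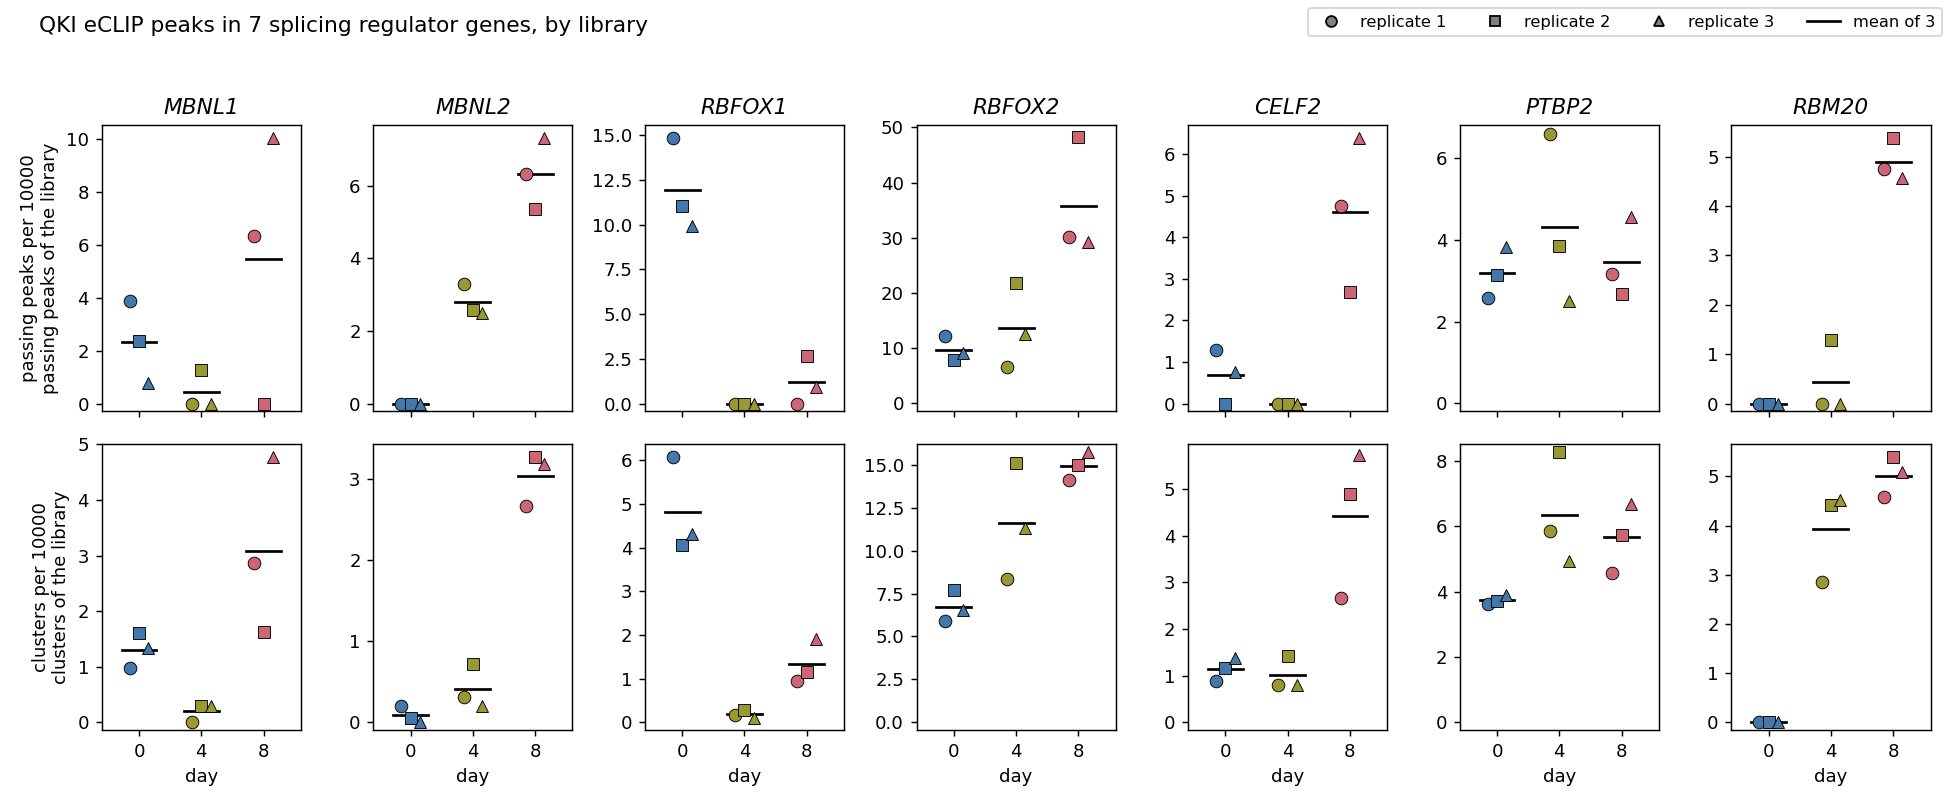
Share of each library's passing peaks (top row) and of its clusters of any fold (bottom row) that lay in each gene, per 10000, at day 0, 4 and 8. Each symbol is 1 library and the black line is the mean of 3; the vertical scale differs between panels. MBNL2 had no passing peak in its interval at day 0, RBFOX1 had none at day 4, and RBM20 had no cluster at day 0.

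MBNL1 had 6, 3 and 1 passing peaks in the 3 day 0 libraries, 0, 1 and 0 at day 4, and 4, 0 and 11 at day 8. Day 8 replicate 2 had none while replicate 3 had the most of all 9 libraries, so the day 8 values enclosed those of both other days. The shares per 10000 passing peaks averaged 2.33 ± 1.55 on day 0, 0.429 ± 0.743 at day 4 and 5.45 ± 5.07 at day 8 (SD, n = 3 each). No pair of days passed the test on passing peaks in limma, with adjusted p-values of 0.579 for day 4 against day 0, 0.286 for day 8 against day 0 and 0.127 for day 8 against day 4. Without day 8 replicate 2 the log2 differences of day 8 were 1.87 from day 0 and 2.45 from day 4, with adjusted p-values of 0.0247 and 0.0117. Without day 8 replicate 3 they were 0.38 and 0.96, with adjusted p-values of 0.695 and 0.408.

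On clusters of any fold MBNL1 showed a dip at day 4. It had 10, 29 and 25 clusters at day 0, 0, 2 and 3 at day 4, and 15, 10 and 30 at day 8. The day 4 values lay below those of every other library. The share fell by 2.62 ± 0.54 on the log2 scale at day 4 against day 0 (limma, adjusted p = 0.00175), and day 8 was higher than day 4 by 3.76 ± 0.54 (adjusted p = 1.00e-04). Day 8 against day 0 gave 1.14 ± 0.54 with an adjusted p of 0.111.

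Passing peaks of MBNL1 that recurred between libraries lay in a stretch of under 1 kb near the 3′ end. Footprints here are passing peaks of all 9 libraries merged where they overlap or touch on the same strand. MBNL1 had 14, of which 10 passed in 1 library only. Clusters that did not pass recurred at some of these 10, as at chr3:152051733-152051800, where 6 libraries held a cluster. The other 4 began 211.52 to 211.93 kb from the 5′ end, about 10 kb from the 3′ end. The footprint at chr3:152173364-152173535 passed in 5 libraries (2 of day 0, 1 of day 4 and 2 of day 8), with a median log2 fold of 4.50. Its neighbour at chr3:152173270-152173356 passed in 3 of 3 day 0, 0 of 3 day 4 and 2 of 3 day 8 libraries. The only MBNL1 peak in a merged list lay in that neighbour, at chr3:152173278-152173356 at day 0, with a log2 fold of 4.19.

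MBNL2, the paralogue of MBNL1, had no passing peak within its interval at day 0. It had 0, 0 and 0 passing peaks at day 0, 1, 2 and 1 at day 4, and 4, 2 and 8 at day 8, so every day 4 and day 8 library was above every day 0 library. The shares averaged 2.79 ± 0.44 per 10000 at day 4 and 6.33 ± 0.96 at day 8 (SD, n = 3 each), and no library of 1 day overlapped another day. A count of 0 allows a floor of 3 peaks summed over the day 0 libraries. Within the interval and against that floor, the share was 3.72-fold higher at day 4 and 9.17-fold higher at day 8. Both folds take the later counts as exact. The interval may end short of the gene, and whether peaks downstream of it belong to MBNL2 was not tested. The 100 kb downstream held 1, 1 and 1 passing peaks at day 0, 0, 0 and 1 at day 4, and 0, 0 and 1 at day 8. With these counted no day 0 library would be at 0 and neither fold against the floor would apply.

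The fitted log2 differences for MBNL2 were 3.42 ± 0.50 for day 4 against day 0 (limma, adjusted p = 2.53e-05) and 4.30 ± 0.50 for day 8 against day 0 (adjusted p = 4.42e-07). Where a day holds only zeros, such a fitted value depends on the 0.5 added to each count and is no bound. MBNL2 was the 1 gene of 5 called higher at day 4 against day 0, where 12.4% of the 926 features were. MBNL2 and RBFOX2 were the 2 called higher at day 8 against day 0, where 15.4% were. MBNL2 had 18 passing peaks over the 9 libraries, exactly the minimum for a test, and 14 of them came from day 8. It was thus tested only because of the day at which it was high. Day 8 against day 4 gave 0.88 ± 0.50 with an adjusted p of 0.259. Over all tested features the median differences were 0.13, 0.04 and −0.26 for day 4 against day 0, day 8 against day 0 and day 8 against day 4, and on clusters of any fold they were 0.03, 0.36 and 0.21.

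The clusters of any fold gave MBNL2 the same order of days. There were 2, 1 and 0 at day 0, 2, 5 and 2 at day 4 and 14, 20 and 20 at day 8. Only the counts of day 8 stood clear of both other days. The share was higher by 2.39 ± 0.67 on the log2 scale at day 4 against day 0 (limma, adjusted p = 0.0171), by 5.25 ± 0.67 at day 8 against day 0 (adjusted p = 9.20e-06) and by 2.87 ± 0.67 at day 8 against day 4 (adjusted p = 0.00758). Of these 66 clusters, 54 came from day 8. MBNL2 thus met the minimum of 18 clusters, too, only because of the day at which it was high.

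The MBNL2 footprint that passed in the most libraries was 199 nt wide, at chr13:98017228-98017426, 143.54 kb from the 5′ end. It passed in 3 of 3 libraries at day 4 and 3 of 3 at day 8 and in none at day 0. Its log2 folds were 4.29, 6.11 and 3.90 at day 4 and 6.58, 5.95 and 7.33 at day 8. At day 0 replicates 1 and 2 held a cluster there with log2 folds of 2.91 and 3.02 that missed the p threshold, and replicate 3 held none. It was the 1 of 101 footprints in the 7 genes that passed in 3 of 3 day 4 and 0 of 3 day 0 libraries, a pattern shown by 0.262% of all 29356 footprints of the series. The day 8 merged list held 2 adjoining peaks in it, at chr13:98017239-98017354 and chr13:98017355-98017426, with log2 folds of 6.67 and 5.03. No other gene of the 7 held a merged peak with a higher fold at any day.

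CELF2 had 2, 0 and 1 passing peaks at day 0, 0, 0 and 0 at day 4, and 3, 1 and 7 at day 8. The day 8 counts overlapped those of day 0, but as shares, 4.75, 2.68 and 6.38 per 10000 at day 8 against 1.29, 0 and 0.765 at day 0, they did not. Against the floor of 3 peaks summed over the day 4 libraries, the share at day 8 was 2.58-fold higher, with the day 8 count taken as exact. Day 8 against day 0 had a ratio of 7.20 (exact 95% interval 1.90 to 40.2, counting error only), and passing peaks of CELF2 were too few for limma.

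Clusters of any fold in CELF2 numbered 9, 21 and 26 at day 0, 5, 10 and 8 at day 4, and 14, 30 and 36 at day 8. As shares these were 1.14 ± 0.25, 1.01 ± 0.36 and 4.43 ± 1.58 per 10000 (SD, n = 3 each), and the lowest day 8 library was above the highest library of either other day. The share rose by 1.89 ± 0.36 on the log2 scale at day 8 against day 0 (limma, adjusted p = 0.000506) and by 2.06 ± 0.36 at day 8 against day 4 (adjusted p = 0.000609). Day 4 against day 0 gave −0.16 ± 0.36 with an adjusted p of 0.786.

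CELF2 had 7 footprints, 4 of them in more than 1 library. The footprint at chr10:11158313-11158472, 111.05 kb from the 5′ end, passed in 3 of 3 day 8 libraries and in no library of either other day. Its log2 folds at day 8 were 5.37, 3.64 and 4.49. Day 0 replicates 1 and 2 held clusters there with log2 folds of 2.91 and 2.19 that did not pass, and no day 4 library held a cluster. The only CELF2 peak in a merged list was in it, at chr10:11158334-11158472 at day 8, with a log2 fold of 4.53.

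RBFOX1 was bound at day 0. It had 23, 14 and 13 passing peaks in the day 0 libraries, 0, 0 and 0 at day 4, and 0, 1 and 1 at day 8, so the day 0 libraries did not overlap those of any other day. The share fell by 3.47 ± 0.60 on the log2 scale at day 4 against day 0 (limma, adjusted p = 0.000268) and by 2.89 ± 0.60 at day 8 against day 0 (adjusted p = 0.000534). Of the 52 passing peaks in RBFOX1, 50 came from day 0. RBFOX1 thus met the minimum for a test on passing peaks only because of the day at which it was high. With the floor of 3 peaks over the day 4 libraries the share at day 4 was 5.98-fold lower, with the day 0 count taken as exact. The 2 peaks of day 8 gave a ratio to day 0 of 0.0786 (exact 95% interval 0.00926 to 0.299, counting error only). The day 8 difference was −2.37 without day 8 replicate 1 (limma, adjusted p = 0.00459) and −3.54 without replicate 2 (adjusted p = 0.000192). Without replicate 3 it was −2.77 (adjusted p = 0.00314).

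RBFOX1 was the 1 gene of 5 called lower at day 4 against day 0, where 12.1% of the 926 features were lower, and at day 8 against day 0, where 20.7% were. Its clusters of any fold numbered 62, 73 and 81 at day 0, 1, 2 and 1 at day 4, and 5, 7 and 12 at day 8. These 3 ranges did not overlap, and day 4 was the lowest. The share of clusters fell by 4.35 ± 0.40 at day 4 against day 0 (limma, adjusted p = 4.04e-07) and by 1.80 ± 0.40 at day 8 against day 0 (adjusted p = 0.00185), and was higher by 2.55 ± 0.40 at day 8 against day 4 (adjusted p = 0.000225).

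RBFOX1 held 20 footprints, and 14 passed in more than 1 library. All 20 passed in a day 0 library and 19 passed at day 0 only. They were spread over much of the interval, but the last began at 1837.16 kb, and none lay in the 25% of the interval nearest the 3′ end. Those that recurred began at 10.93 to 16.01 kb from the 5′ end, at 147.05, 491.43, 491.67, 719.31, 859.26 and 958.00 kb, and at 1453.37 to 1454.19 kb.

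The RBFOX1 footprint with the highest median log2 fold, at chr16:5301035-5301176, had log2 folds of 6.85, 6.95 and 5.68 at day 0, and no library of either later day held a cluster there. The same held at chr16:6743107-6743405, with 5.78, 5.95 and 4.29 at day 0, and at chr16:5781139-5781359, with 5.32, 5.51 and 3.29. Among the other footprints, chr16:6742834-6742880 held a cluster that did not pass in 1 day 4 library. Clusters at the later days were present at chr16:5300696-5300895, which passed in 3 of 3 day 0 libraries with log2 folds of 7.00, 5.29 and 5.71, in 0 of 3 day 4 libraries, where replicates 2 and 3 held clusters that did not pass, and in 2 of 3 day 8 libraries with 3.25 and 4.14.

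The day 0 merged list held 6 peaks in RBFOX1, the highest at chr16:5301039-5301168 with a log2 fold of 6.54. The day 4 and day 8 merged lists, which were far shorter, held none. Of the 101 footprints in the 7 genes, 8 passed in 0 of 3 day 4 and 3 of 3 day 0 libraries, a pattern shown by 9.11% of all footprints, and 6 of the 8 were in RBFOX1. Those that passed in 0 of 3 day 8 and 3 of 3 day 0 libraries were 6 of 101, against 9.45% of all footprints, and 5 were in RBFOX1.

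**Figure D2:**
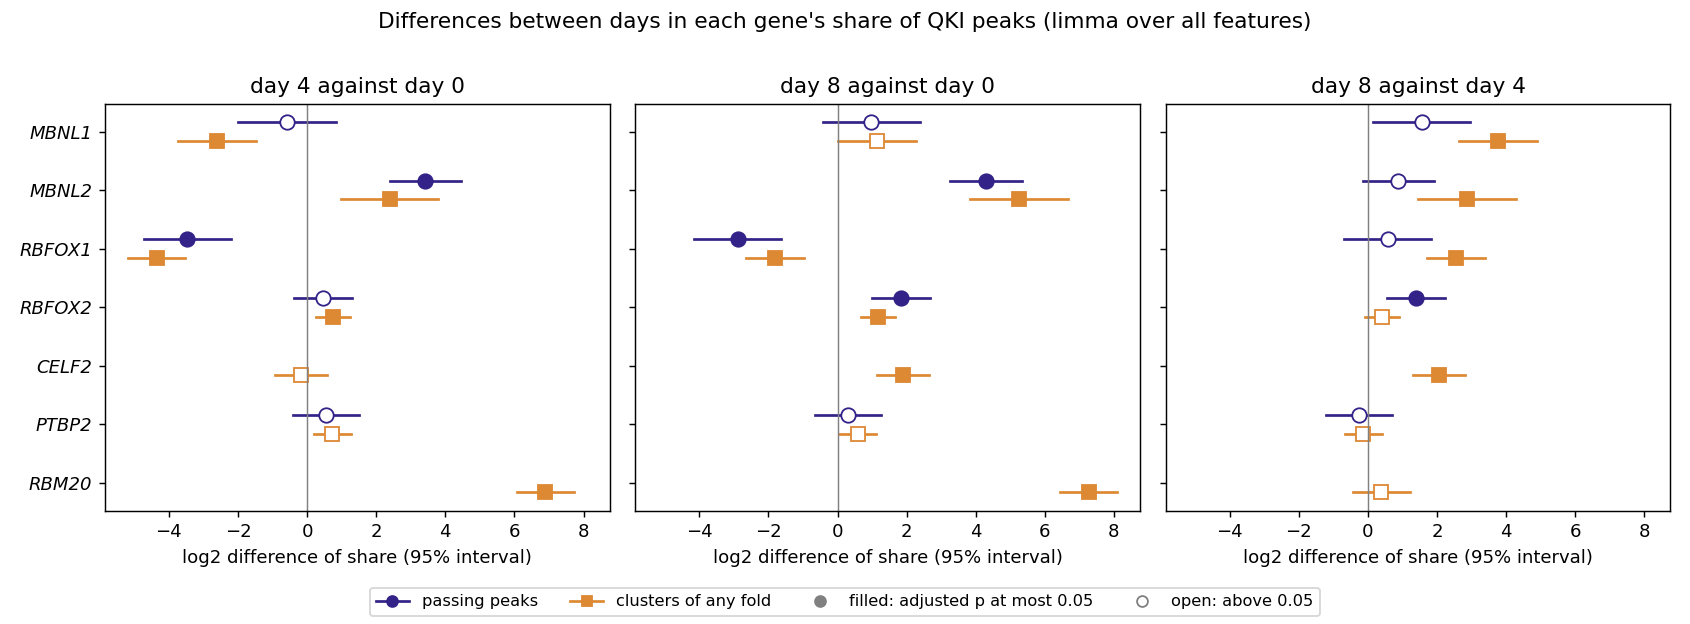
Difference between days in each gene's share of passing peaks (circles) and of clusters of any fold (squares) on a log2 scale, with 95% intervals from limma; filled symbols have an adjusted p at or below 0.05 over all features. CELF2 and RBM20 have no circle because their passing peaks were too few. RBFOX1 lies left of 0 and MBNL2 right of 0 in both comparisons with day 0.

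RBFOX2, the paralogue of RBFOX1, carried the most QKI peaks of the 7 genes, 134 of the 282 passing peaks. It had 19, 10 and 12 at day 0, 2, 17 and 5 at day 4, and 19, 18 and 32 at day 8. The counts of days 0 and 8 overlapped, but as shares of their libraries they did not. The shares averaged 9.77 ± 2.25 per 10000 at day 0, 13.7 ± 7.70 at day 4 and 35.9 ± 10.8 at day 8 (SD, n = 3 each).

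The share of passing peaks in RBFOX2 rose by 1.84 ± 0.41 on the log2 scale at day 8 against day 0 (limma, adjusted p = 0.000945). Day 8 against day 4 gave 1.38 ± 0.41 with an adjusted p of 0.0221, the 1 call among the 5 tested genes in this comparison, where 8.86% of features were higher and 7.13% lower. That call was lost without day 4 replicate 1 (difference 1.02, adjusted p = 0.111), without day 4 replicate 3 (1.39, adjusted p = 0.0628), without day 8 replicate 2 (1.15, adjusted p = 0.0652) and on clusters of any fold (0.40, adjusted p = 0.303). Day 4 against day 0 gave 0.45 ± 0.41 with an adjusted p of 0.445, but 1.33 with an adjusted p of 0.0238 when each library was cut to its 3030 peaks with the highest −log10 p.

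Clusters of any fold in RBFOX2 numbered 60, 139 and 123 at day 0, 53, 106 and 113 at day 4, and 74, 92 and 99 at day 8. The counts overlapped at all 3 days, and the lists of the later days were shorter. As a share of those lists, RBFOX2 was higher by 0.76 ± 0.23 on the log2 scale at day 4 against day 0 (limma, adjusted p = 0.0283) and by 1.16 ± 0.23 at day 8 against day 0 (adjusted p = 0.000881). The percentage of RBFOX2 clusters that passed was 31.7, 7.19 and 9.76 in the day 0 libraries, 3.77, 16.04 and 4.42 at day 4, and 25.7, 19.6 and 32.3 at day 8. Over whole libraries these percentages were 15.2, 7.06 and 6.95 at day 0, 4.79, 11.1 and 4.02 at day 4, and 12.05, 6.09 and 17.4 at day 8. RBFOX2 exceeded its library in 8 of 9, and day 4 replicate 1 was the exception.

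RBFOX2 had 39 footprints, 26 of them in the 25% of the interval nearest the 3′ end. The footprint at chr22:36152745-36152900, 271.69 kb from the 5′ end, passed in 9 of 9 libraries. Its log2 folds were 3.86, 3.93 and 5.12 at day 0, 5.16, 5.77 and 3.69 at day 4, and 4.11, 3.66 and 4.36 at day 8, with overlap between all 3 days. It was the only RBFOX2 peak in the day 4 merged list (chr22:36152748-36152864, log2 fold 4.92). The highest merged peak of day 0 was at chr22:36190904-36190970 with a log2 fold of 5.57, and that of day 8 covered the same site, chr22:36190898-36191004, with 5.62.

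Other RBFOX2 footprints passed at day 8 but not at day 4. Those at chr22:36202450-36202558 and chr22:36202203-36202302, about 222 kb from the 5′ end, passed in 3 of 3 day 8 and 0 of 3 day 4 libraries, and in 2 and 3 of the day 0 libraries. The first had log2 folds of 4.86, 3.97 and 3.83 at day 8, against 1.29, 2.14 and 1.76 in the day 4 libraries, which all held a cluster there. Another at chr22:36164109-36164181 passed in 3 of 3 day 8, 0 of 3 day 4 and 1 of 3 day 0 libraries. Of all 101 footprints in the 7 genes, 8 passed in 3 of 3 day 8 and 0 of 3 day 4 libraries, against 1.78% of all footprints of the series, and 5 of them were in RBFOX2. The reverse, 0 of 3 at day 8 and 3 of 3 at day 4, was shown by 0 of 101 and by 0.194% of all.

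PTBP2 gave no call in any pair of days. It had 4, 4 and 5 passing peaks at day 0, 2, 3 and 1 at day 4, and 2, 1 and 5 at day 8. As shares these averaged 3.19 ± 0.62, 4.32 ± 2.09 and 3.47 ± 0.97 per 10000 (SD, n = 3 each), and the ranges of all 3 days overlapped. The log2 differences were 0.56 (95% interval −0.39 to 1.52) for day 4 against day 0, 0.29 (−0.66 to 1.25) for day 8 against day 0 and −0.27 (−1.22 to 0.69) for day 8 against day 4, with adjusted p-values from limma of 0.402, 0.659 and 0.740. Each interval leaves room for a difference of over 2-fold.

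Clusters of any fold in PTBP2 numbered 37, 67 and 73 at day 0, 37, 58 and 49 at day 4, and 24, 35 and 42 at day 8. Per 100 kb of interval PTBP2 had the densest clusters of the 7 genes at each day, 57.8 ± 18.9 at day 0, 47.0 ± 10.3 at day 4 and 33.0 ± 8.89 at day 8 (SD, n = 3 each). RBFOX2 followed with 37.0 ± 14.4, 31.3 ± 11.3 and 30.5 ± 4.45. Within each day 0 and day 4 library PTBP2 was denser than RBFOX2. At day 8 PTBP2 had 23.5, 34.3 and 41.1 against 25.5, 31.7 and 34.2 for RBFOX2, so replicate 1 had the reverse order. The share of clusters missed the threshold with adjusted p-values from limma of 0.0506 for day 4 against day 0, 0.0853 for day 8 against day 0 and 0.770 for day 8 against day 4.

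The PTBP2 footprint at chr1:97254030-97254162, 66.86 kb from the 5′ end, passed in 9 of 9 libraries. Its log2 folds were 3.80, 2.59 and 3.67 at day 0, 2.70, 3.45 and 2.63 at day 4, and 3.03, 4.72 and 3.06 at day 8. It held PTBP2's only merged peak of day 4, chr1:97254082-97254152 with a log2 fold of 3.10. A second footprint at chr1:97271801-97271892 passed in 3 of 3 day 0 libraries with log2 folds of 4.54, 4.48 and 3.29, in 1 of 3 day 4 libraries and in 0 of 3 at day 8, and held the highest merged peak of day 0 at chr1:97271801-97271886 with a log2 fold of 4.32.

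RBM20 held no cluster of any fold in the day 0 libraries. It had 18, 31 and 45 clusters at day 4 and 24, 33 and 32 at day 8, and these 2 ranges overlapped. No cluster at day 0 was shown by 2.35% of the 3701 features fitted on clusters. Against the floor of 3 clusters over the day 0 libraries the share was 63.2-fold higher at day 4 and 79.0-fold higher at day 8. These folds take the later counts as exact. The fitted log2 differences were 6.89 ± 0.39 and 7.27 ± 0.39, with adjusted p-values from limma of 1.74e-09 and 3.05e-10. Day 8 against day 4 gave 0.38 ± 0.39 with an adjusted p of 0.600.

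Passing peaks in RBM20 were nearly confined to day 8. There were 0, 0 and 0 at day 0, 0, 1 and 0 at day 4, and 3, 2 and 5 at day 8, and every day 8 library was above every other library. The share at day 8 was 6.55-fold higher than the day 0 floor, with the day 8 count taken as exact. The ratio of day 8 to day 4 was 7.05 (exact 95% interval 1.002 to 306, counting error only). These passing peaks were too few for limma.

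The RBM20 footprints that recurred were a pair near the 5′ end. The footprint at chr10:112415120-112415264, 10.97 kb from the 5′ end, had log2 folds of 5.77, 4.36 and 4.69 at day 8, and no day 0 or day 4 library held a cluster there. The footprint at chr10:112414545-112414689 had 4.57, 3.36 and 4.69 at day 8, and day 4 replicates 2 and 3 held clusters of 2.72 and 3.25 that did not pass. No merged list held an RBM20 peak. Of the 101 footprints in the 7 genes, 5 passed in 3 of 3 day 8 and 0 of 3 day 0 libraries, against 1.68% of all footprints, and these were 2 in RBM20 and 1 each in MBNL2, CELF2 and RBFOX2.

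**Figure D3:**
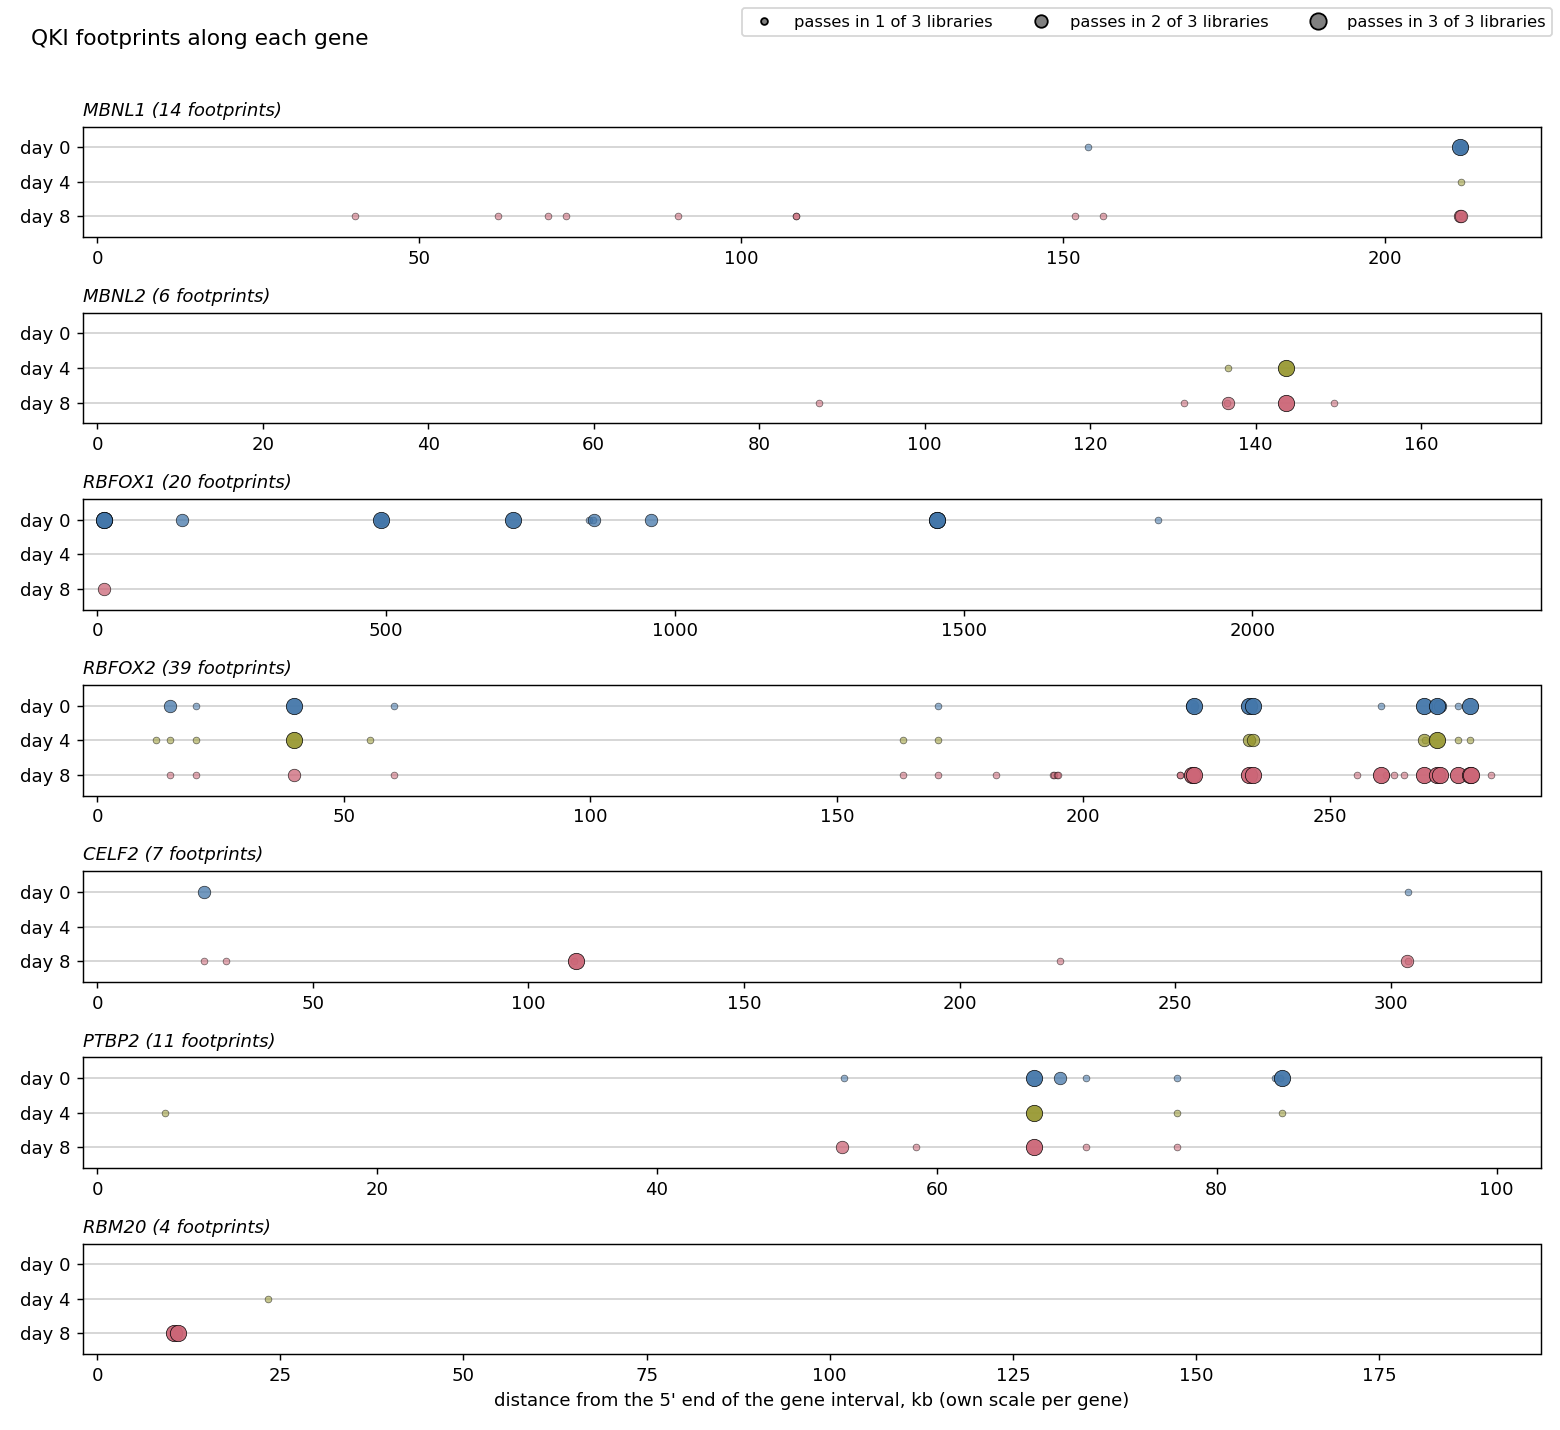
Footprints along each gene by distance from the 5′ end of its interval in kb, in rows for day 0, 4 and 8; a larger symbol passed in more of that day's 3 libraries, and the horizontal scale differs between genes. RBFOX1 footprints fill the day 0 row and leave the day 4 row empty, RBFOX2 footprints crowd toward the 3′ end, and the large RBM20 symbols stand near the 5′ end at day 8.

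**Figure D4:**
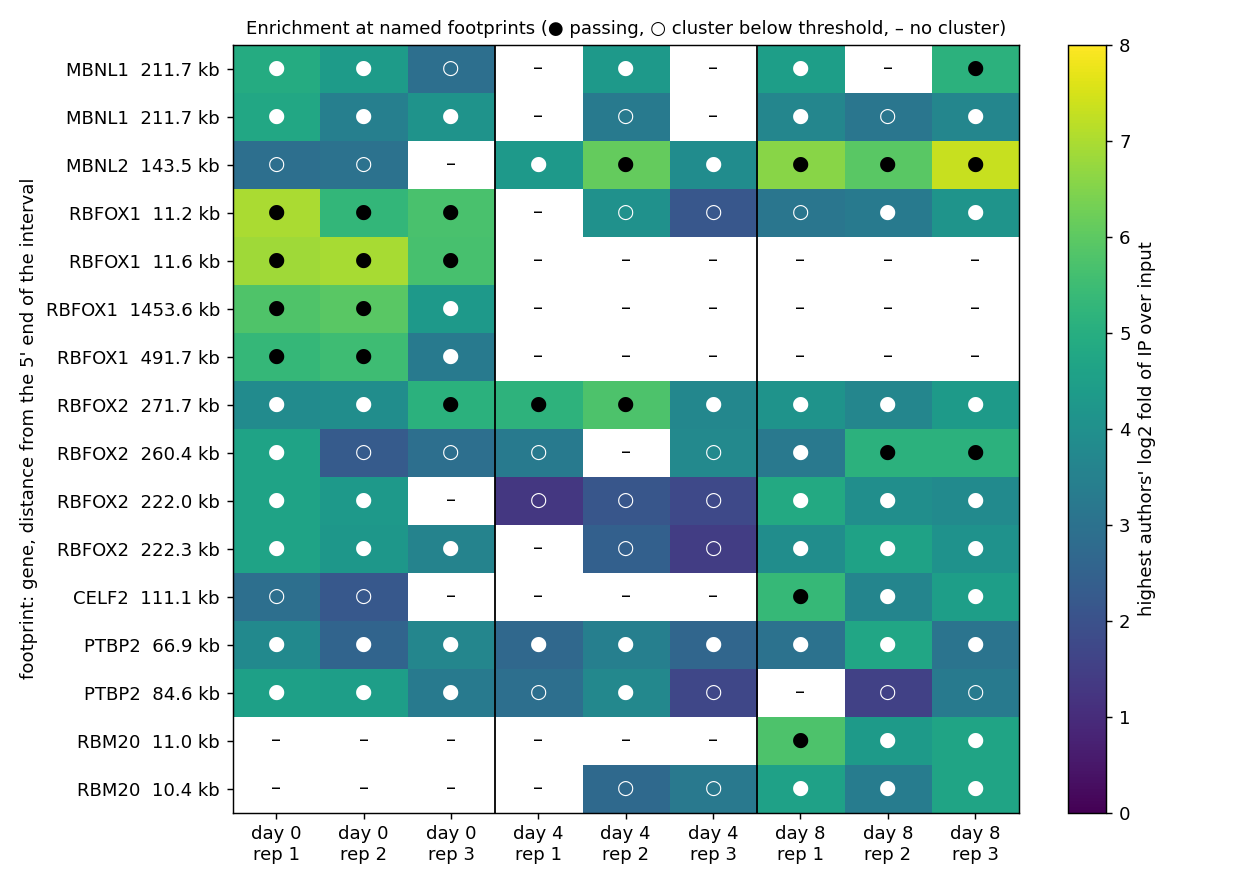
Highest authors' log2 fold of IP over input at each named footprint in the 9 libraries, as colour; filled circles mark passing footprints, open circles clusters that did not pass, and dashes no cluster. The RBFOX1 footprints at 11.6, 491.7 and 1453.6 kb have values at day 0 only, and the RBFOX2 footprint at 271.7 kb and the PTBP2 footprint at 66.9 kb pass in 9 of 9 libraries.

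On clusters of any fold, 3 of the 7 genes (MBNL2, RBFOX2 and RBM20) were higher and 2 (MBNL1 and RBFOX1) lower at day 4 against day 0, where 10.6% and 9.94% of the 3701 features were. At day 8 against day 0, 4 (MBNL2, RBFOX2, CELF2 and RBM20) were higher and 1 (RBFOX1) lower, against 20.4% and 12.9% of features. At day 8 against day 4, 4 (MBNL1, MBNL2, RBFOX1 and CELF2) were higher and 0 lower, against 8.05% and 4.3%. The comparisons share libraries, so these counts are not independent of each other. With 7 genes chosen by name, each share describes these genes and no wider class.

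Per 100 kb of interval, the genes were not ordered the same way by passing peaks at each day. At day 0 RBFOX2 and PTBP2 led with 4.72 ± 1.63 and 4.24 ± 0.57 passing peaks per 100 kb, in an order that varied between libraries. They were followed by MBNL1 with 1.50 ± 1.13, RBFOX1 with 0.674 ± 0.223 and CELF2 with 0.302 ± 0.302 (SD, n = 3 each). MBNL2 and RBM20 had none. At day 4 RBFOX2 with 2.76 ± 2.74 and PTBP2 with 1.96 ± 0.98 again led, and no other gene averaged above the 0.772 ± 0.334 of MBNL2. At day 8 RBFOX2 led with 7.94 ± 2.70. MBNL2 with 2.70 ± 1.77, PTBP2 with 2.61 ± 2.08, MBNL1 with 2.25 ± 2.51 and RBM20 with 1.71 ± 0.78 came in an order that varied between libraries. CELF2 with 1.11 ± 0.92 was below RBM20 in each day 8 library. RBFOX1 came last with 0.0269 ± 0.0233.

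Among footprints, 53 of 101 in the 7 genes passed in some day 0 library, 23 in some day 4 library and 68 in some day 8 library, against 19161, 9550 and 12784 of all 29356 footprints. The day 8 number rests on replicate 3, which held 60 of the 68: without it day 8 had 32. The day 4 number rests on replicate 2, which held 22 of the 23: without it day 4 had 8. Day 0 had 38 to 50 without 1 of its libraries. Footprints that passed in 1 library only made up 49.5% of those in the 7 genes and 52.3% of all. Most clusters in the 7 genes that did not pass missed the p threshold. Of the 2057 clusters, 832 met the fold threshold and missed p, 2 met p and missed the fold, and 941 missed both.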

How the data were processed

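Per the submitters' processing notes, cutadapt, STAR, SAMtools and the hg19 build were used, with no versions; the peak caller is not given in the sources used here. The deposited lists give each cluster a log2 fold of IP over input and a −log10 p-value, per the file headers, and all log2 values are above 0. Clusters were called per library, and each day's merged list holds peaks of at least 4-fold that passed an IDR comparison of 3 libraries, per the file headers. The 9 inputs were not analysed here except through the authors' values. Depth is unknown, so no read-level error is available. Group and replicate came from the sample titles.

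Passing peaks had a log2 fold of at least 2 and a −log10 p of at least 3. Features were the 7 gene intervals and the loci made by joining all other passing peaks on the same strand within 20 kb (10735 features), of which 926 with at least 18 passing peaks were fitted. Counts per feature became log2 of (peaks + 0.5) over (the library's passing peaks + 1) times 10000, fitted by day over 9 libraries with limma 3.58.1 (lmFit, eBayes with trend; R 4.3.3), Benjamini-Hochberg at 0.05 over all features. Values after ± in log2 differences are standard errors. The same fit was made on clusters of any fold, with at least 18 clusters. The fitting step was tested on simulated counts with 4-fold and 8-fold changes at day 8. No day was set to hold only zeros, so that case was not tested. Ratios of summed shares carry exact 95% intervals, which cover counting error only. A sum of 0 was set to a floor of 3 counts per day, and the other day's count was taken as exact. Folds against that floor are therefore not 95% limits. Other steps used Python 3.11.15.

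The text names, per gene, the merged peak with the highest fold at each day and the footprint passing in the most libraries. It also names up to 3 footprints that passed in 3 of 3 libraries of 1 day and in 0 of 3 of at least 1 other day. For MBNL2, RBFOX1 and RBFOX2 it names the 3 features with the most similar course. Further merged peaks, counts without a library, and footprint positions given in ranges, were added after their values were seen. Genes, lists and tests were chosen with earlier results of these data known. A list of other splicing regulators was not counted, and motifs and exons were not examined, because no hg19 annotation or genome was used. Alternatives were an 8-fold threshold, clusters of any fold, equal numbers of peaks, covered nucleotides, a pseudocount of 2, a minimum of 45 peaks or none, joining within 5 kb, peak midpoints, library size in passing peaks as a covariate, a permutation test, the replicate block and leaving out each library.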

Additional observations from a re-analysis of the deposited data

How the results depend on the processing

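Of the 276 recomputed differences between days in the 5 tested genes, 260 kept their side of the threshold, 9 gained a call and 7 lost it, all 7 for RBFOX2 at day 8 against day 4; the uncalled MBNL1 difference at day 4 against day 0 was −0.58, but 0.48 with a pseudocount of 2 and 1.37 with a covariate for the library's passing peaks. Besides the losses given above, RBFOX2 at day 8 against day 4 had adjusted p-values of 0.0735 with a pseudocount of 2, 0.0646 with no filter and 0.0625 with the covariate. MBNL1 at day 8 against day 0 gained a call with a pseudocount of 2 (adjusted p = 0.0241). The calls of MBNL2 and RBFOX1 against day 0 and of RBFOX2 at day 8 against day 0 held in every alternative in which the gene could be tested, with log2 differences of 2.31 to 3.66 and 2.74 to 5.25 for MBNL2, −4.95 to −1.59 and −3.93 to −1.69 for RBFOX1, and 1.16 to 3.02 for RBFOX2. With equal numbers of peaks, 3030 per library, only RBFOX2 had enough peaks, and with at least 45 peaks only RBFOX1 and RBFOX2. At 8-fold MBNL2 had too few peaks and was not tested. Genes called at day 4 against day 0 numbered 2, but 1 at 8-fold and 5 on clusters. With equal numbers 1 was called (RBFOX2), and with at least 45 peaks 1 (RBFOX1). At day 8 against day 0 they numbered 3, but 5 on clusters, 1 with equal numbers and 5 with no filter. At day 8 against day 4 they numbered 1 (RBFOX2), but 4 on clusters, without RBFOX2 among them. They numbered 0 with a pseudocount of 2, 0 with the covariate and 0 to 1 without 1 library. The 1 gene called was MBNL1 without day 8 replicate 2, and CELF2 with no filter. Over 3 days 3 genes were called, but 6 on clusters, 1 with equal numbers and 6 with no filter. The exact permutation test called 0. Features called at day 4 against day 0 numbered 227 (115 higher, 112 lower), but 761 on clusters, 127 with equal numbers (40 and 87), 52 with at least 45 peaks, 4450 with no filter (4211 and 239), 146 with the covariate (31 and 115), 285 with a pseudocount of 2 (265 and 20), 193 at 8-fold (119 and 74), and 144 to 254 without 1 library (149 without day 0 replicate 1 and 144 without day 0 replicate 2). At day 8 against day 0 they numbered 335 (143 and 192), but 1230 on clusters (754 and 476), 155 with equal numbers, 76 with at least 45 peaks (41 and 35), 3147 with no filter (2663 and 484) and 283 with a pseudocount of 2 (209 and 74), and 278 with the covariate (85 and 193). At day 8 against day 4 they numbered 148 (82 and 66), but 457 on clusters, 87 with equal numbers (57 and 30), 73 with a pseudocount of 2, 57 with at least 45 peaks and 243 with no filter. Over 3 days they numbered 382, but 1310 on clusters, 173 with equal numbers, 89 with at least 45 peaks, 4456 with no filter and 0 in the exact permutation test. A pseudocount of 2 moved the median difference of all features to 0.65, 0.35 and −0.38 for the 3 pairs of days, from 0.13, 0.04 and −0.26. Fewer or more features were tested under several of these; otherwise the cause was not tested. The libraries share replicate numbers by name only: deviations of same-numbered libraries correlated at −0.157 to 0.284, and not every library correlated best with its own number. The replicate block gave 237, 344 and 153 called features for the 3 pairs of days and 397 over 3 days, and changed no call in the 5 genes tested on passing peaks; it was not run on clusters. A permutation test of a pair of days was not run, since its smallest p is 0.1. Peak lists without read counts limit every value here, and genes with few peaks most.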

Other observations

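The other loci whose log2 shares followed those of MBNL2 most closely, by Pearson r over the 9 libraries among 389 features with at least 30 passing peaks, were chr5:127784742-127873771 on the minus strand (r = 0.996), chr4:30723092-30906311 on the plus strand (0.995) and chr6:73544450-73592777 on the plus strand (0.994). Each had 0 passing peaks in the 3 day 0 libraries, as MBNL2 did, so that these correlations rest in part on shared zeros. The locus on chromosome 5 had 2, 3 and 3 passing peaks at day 4 and 7, 4 and 18 at day 8.

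For RBFOX1 the closest loci were chr11:75017715-75062489 on the minus strand (0.943), chr4:93238303-93475055 on the plus strand (0.930) and chr17:80775181-80816316 on the plus strand (0.928). The locus on chromosome 4 had 38, 32 and 37 passing peaks at day 0 and 0 in the 6 libraries of the later days. For RBFOX2 they were chr2:88391425-88411917 on the plus strand (0.913), chr10:68744101-68896720 on the minus strand (0.911) and chr5:36639366-36670988 on the plus strand (0.906). The points share libraries and list lengths, and the loci are picked as the highest of many, so these values describe likeness over 9 libraries only. The loci are unnamed because the files pair no gene with a peak.

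Within 100 kb on the same strand, the flanks of MBNL1, CELF2, RBFOX1, RBFOX2 and PTBP2 held no cluster in any library, and neither did the upstream flank of MBNL2. The downstream flank of MBNL2 held 44 clusters, 5 of them passing, with 5, 10 and 10 clusters at day 0, 3, 2 and 4 at day 4 and 3, 4 and 3 at day 8. The flanks of RBM20 held 51 clusters upstream, none passing, and 122 downstream, 11 of them passing. Unlike RBM20 itself, its flanks had clusters at day 0, with 6, 12 and 12 upstream and 6, 20 and 14 downstream. CELF2 and RBM20 together held 25 of the 3744 passing peaks of chromosome 10 (0.668%).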
